A study of Mus musculus with 4 samples.

Results

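The simple epithelial keratins Krt7, Krt8, Krt18, Krt19, Krt20 and Krt23 were examined in RNA from cultured mouse pancreatic fibroblasts. They are 6 of the 38921 gene intervals in the deposited tables, were matched by symbol, and each had 1 row. There were 2 libraries from fibroblasts of KPC mice (KPC 1 and KPC 2) and 2 from fibroblasts of wild type mice (wild type 1 and wild type 2). All 4 came from pancreas of animals of mixed strain and were grown in serum-containing medium after a gravity separation, and the labels call them biological replicates. KPC mice are widely used to model pancreatic cancer; the labels give the name alone, and ages are not given in the sources used here. Whether they came from separate animals or cultures is not stated in the labels, so the p-values reflect only how far these libraries vary, which may be technical. Counts summed to 57926327 in KPC 1, 68312367 in KPC 2, 53232634 in wild type 1 and 22302141 in wild type 2, and these sums run over intervals that overlap.

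Keratins are the intermediate filament proteins of epithelial cells, and each filament is built from pairs of 1 acidic (type I) and 1 basic (type II) chain. Krt8 (type II) and Krt18 (type I) are the basic pair of single-layered epithelia, which include pancreatic acini and ducts. Krt7 (type II) and Krt19 (type I) are added in ducts, Krt20 (type I) is best known from intestinal and urothelial surface cells, and Krt23 (type I) is a less studied member. Mesothelial cells make several of these keratins as well. Fibroblasts build their filaments mainly from vimentin, so these transcripts are read here as a possible sign of epithelial or mesothelial RNA in a fibroblast culture. Which cells made them was not tested.

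Krt8 and Krt18 lie next to each other on chromosome 15 and are transcribed away from each other. In the mm10 build, the deposited interval of Krt8 runs from 101996711 to 102004342 on the minus strand and that of Krt18 from 102028216 to 102032026 on the plus strand, 23874 bases apart with 0 other rows between. Krt7 is on chromosome 15 from 101411043 to 101430313 (plus strand), and Krt20 (99428403 to 99438150), Krt23 (99477974 to 99493137) and Krt19 (100140810 to 100148665) lie in the type I cluster on the minus strand of chromosome 11. The start regions of Krt8 and Krt18 are shown because this adjacent pair had unlike levels in wild type 1, and that of Krt23 because it had the largest fold change. Each runs 5′ to 3′ from 250 bases before to 50 bases after the start annotated by RefSeq on GRCm38.p6, and capitals mark the motif matches named after them. The windows are chr15:102004293-102004592 on the minus strand for Krt8, chr15:102027966-102028265 on the plus strand for Krt18 and chr11:99493071-99493370 on the minus strand for Krt23.
Krt8: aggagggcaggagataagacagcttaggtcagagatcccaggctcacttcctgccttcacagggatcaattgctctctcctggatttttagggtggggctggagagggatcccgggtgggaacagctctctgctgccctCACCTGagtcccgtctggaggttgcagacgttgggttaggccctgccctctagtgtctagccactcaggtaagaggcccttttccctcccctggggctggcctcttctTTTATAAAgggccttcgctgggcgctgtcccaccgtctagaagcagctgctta
Krt18: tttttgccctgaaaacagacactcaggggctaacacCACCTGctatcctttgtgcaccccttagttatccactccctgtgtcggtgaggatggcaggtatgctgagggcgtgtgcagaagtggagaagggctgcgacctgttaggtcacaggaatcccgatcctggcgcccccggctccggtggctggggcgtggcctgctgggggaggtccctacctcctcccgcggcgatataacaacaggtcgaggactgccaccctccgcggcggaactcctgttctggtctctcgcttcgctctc
Krt23: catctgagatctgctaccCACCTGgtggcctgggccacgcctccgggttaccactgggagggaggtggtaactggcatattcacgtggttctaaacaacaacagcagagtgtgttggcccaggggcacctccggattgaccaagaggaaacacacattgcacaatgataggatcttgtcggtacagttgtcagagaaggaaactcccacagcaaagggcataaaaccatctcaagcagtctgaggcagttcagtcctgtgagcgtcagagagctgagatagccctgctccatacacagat

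Windows of this length were matched for 5 of the 6 keratins (Krt7, Krt8, Krt18, Krt20 and Krt23) and searched on both strands for TATAAA (the TATA box), GGGCGG (SP1 box), TGANTCA (AP-1), AACCGGTT (grainyhead-like factors) and CACCTG (the E-box read by Snail and Zeb factors). CACCTG was found in 4 of the 5, those of Krt7, Krt8, Krt18 and Krt23, and in 20.2% of 32851 windows of all genes. TATAAA was found in the windows of Krt8 (once on each strand, overlapping) and Krt20 and in 13.6% of all windows. The matches began at -3 and -1 for Krt8 and at -29 for Krt20, in bases from the annotated start. GGGCGG was found 4 times in the window of Krt7, in no other keratin window, and in 35.7% of all windows. Neither TGANTCA nor AACCGGTT was in any of the 5 windows, against 7.81% and 0.146% of all windows. These are matches of letters only. The Krt8 and Krt18 windows held 58.0% and 61.3% G and C, with a median of 52.7% over all windows.

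All 6 keratins had their lowest level in wild type 1, and none of them changed between KPC and wild type past the test. Levels are CPM (counts scaled to library size) after TMM scaling, with exact 95% Poisson intervals where a level is single and low; these and all other counting intervals cover counting error only. Both KPC libraries lay above both wild type libraries for Krt19 and Krt23. For the other 4, wild type 2 lay between KPC 1 and KPC 2. Fewer keratin-expressing cells and less keratin RNA per cell cannot be told apart in these bulk libraries.

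Krt8, the type II chain of the basic pair, stood at 490 CPM in KPC 1 and 85.1 CPM in KPC 2, against 0.399 CPM in wild type 1 (interval 0.247 to 0.611) and 146 CPM in wild type 2. The groups overlapped, wild type 2 was above KPC 2, and the highest library was 1226 times the lowest. Its log2 fold change was 1.98 ± 2.17 (SE), with an adjusted p of 0.836 in edgeR's quasi-likelihood test. Krt18, its type I partner, stood at 465 and 121 CPM in KPC 1 and KPC 2, against 21.1 and 134 CPM in wild type 1 and wild type 2. It followed the same order of libraries as Krt8 but spanned 22.0-fold, and its log2 fold change was 1.92 ± 1.06 (edgeR adjusted p = 0.657).

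Krt7, the type II keratin of ducts, stood at 37.9 and 116 CPM in KPC 1 and KPC 2, against 1.54 and 42.8 CPM in wild type 1 and wild type 2. It was the 1 keratin of the 6 that was highest in KPC 2, and KPC 1 lay slightly below wild type 2. Its log2 fold change was 1.81 ± 1.46 (edgeR adjusted p = 0.767). Krt19, the type I keratin of ducts, stood at 64.7 and 34.9 CPM in KPC 1 and KPC 2, against 5.23 and 20.1 CPM in wild type 1 and wild type 2. The groups did not overlap, though KPC 2 was 1.74 times wild type 2 while wild type 2 was 3.84 times wild type 1. The log2 fold change of Krt19 was 1.99 ± 0.71, with an unadjusted p of 0.0408 and an adjusted p of 0.556 in edgeR.

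Krt20 stood at 13.4 and 3.58 CPM in KPC 1 and KPC 2, against 0.476 CPM in wild type 1 (interval 0.308 to 0.702) and 11.7 CPM in wild type 2. Its counting intervals in KPC 1 (12.5 to 14.3) and wild type 2 (10.3 to 13.2) overlapped. The log2 fold change of Krt20 was 0.50 ± 1.42 (edgeR adjusted p = 0.951), the smallest of the 6. Krt23 stood at 42.1 and 7.43 CPM in KPC 1 and KPC 2, against 0.0380 CPM in wild type 1 (2 counts, interval 0.00461 to 0.137) and 1.07 CPM in wild type 2 (24 counts, interval 0.688 to 1.60). KPC 2 was 6.92 times wild type 2, the widest gap between the groups among the 6. Krt23 had a log2 fold change of 5.72 ± 1.60, with an unadjusted p of 0.0171 and an adjusted p of 0.495 in edgeR.

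**Figure D1:**
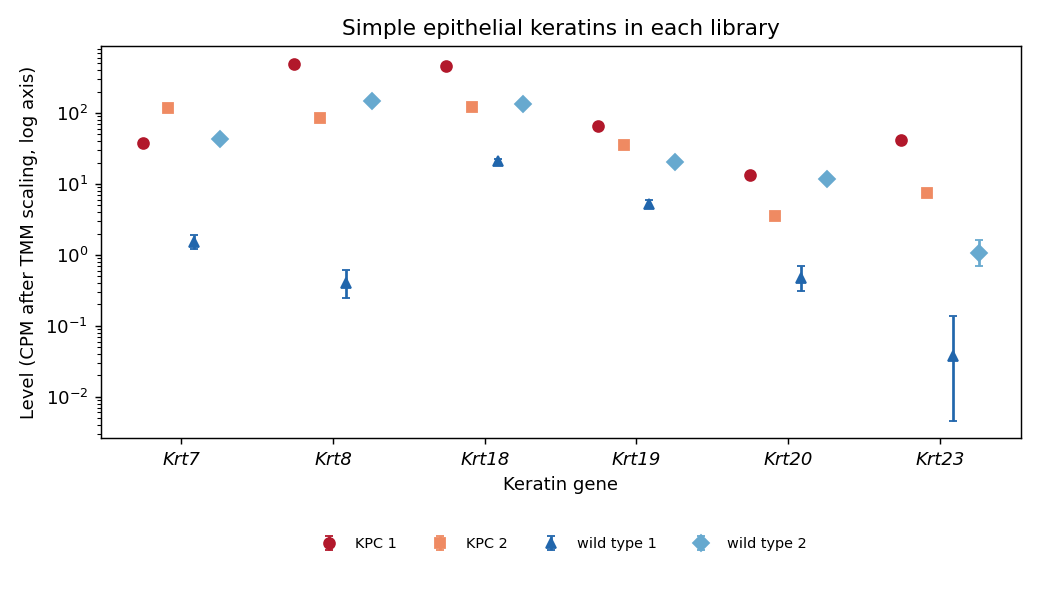
Level of each keratin in each library, in CPM after TMM scaling on a log axis; points are single libraries, KPC left of wild type, and bars are exact 95% Poisson intervals of counting error. Wild type 1 is the lowest library for all 6 genes, and KPC 1 and KPC 2 both lie above wild type 2 for Krt19 and Krt23 alone.

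Over all 23046 tested rows, edgeR called 0% at an adjusted p of 0.05, and 0 of the 6 keratins. At an unadjusted p under 0.05 and higher in KPC there were 2 keratins of 6, Krt19 and Krt23, against 4.73% of all rows; 0 keratins and 3.94% of all rows were lower at that p. DESeq2 called 0 of the 6, with adjusted p-values of 0.0974 for Krt19, 0.127 for Krt23 and 0.843 or more for the others, and called 1.44% of all rows higher; limma voom called 0 of the 6 and 0 rows, though its log2 fold changes were larger, at 5.43 for Krt8, 3.43 for Krt7 and 1.94 for Krt20, with a median of 2.89. The 2 keratins whose groups did not overlap compare with 20.6% of all rows in that direction. In the other direction there were 0 keratins and 20.5% of all rows. All 6 had a positive log2 fold change, with a median of 1.95, where 48.8% of all rows were positive and their median was -0.01. Of the 6, 5 reached a log2 fold change of 1.5, as did 3.53% of all rows. A permutation of 2 libraries against 2 cannot give a two-sided exact p below 0.333.

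The size of the keratin differences depended on which wild type library was used. Without wild type 1, the median log2 fold change of the 6 was 1.06 and Krt20 was at -0.46; without wild type 2 the median was 4.90. Without wild type 2 edgeR called 2 of the 6 higher, Krt7 (log2 fold change 5.64, adjusted p = 0.04995) and Krt19 (3.25, adjusted p = 0.0390), where it called 1.79% of all rows higher. Leaving out KPC 1 gave a median of 1.06 with Krt8 at 0.22, Krt18 at 0.65 and Krt20 at -0.74, and leaving out KPC 2 gave a median of 2.47. Each of these fits has 1 group of a single library, which is assumed to vary like the other group.

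**Figure D2:**
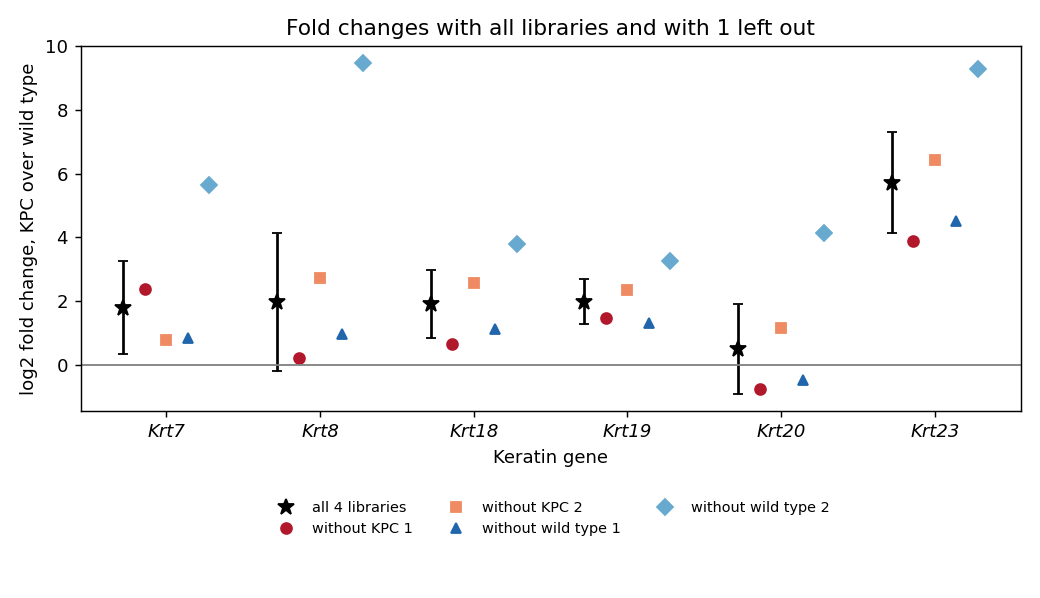
log2 fold change of each keratin, KPC over wild type, from edgeR with all 4 libraries (star, bar = SE) and with 1 library left out. Without wild type 2 all 6 values are larger, between 3.25 and 9.49, and Krt20 is the 1 gene with values below 0, at -0.74 without KPC 1 and -0.46 without wild type 1.

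The balance of the Krt8 and Krt18 transcripts was similar in 3 libraries and unlike in wild type 1. Per kilobase of exon of the principal GENCODE transcript, Krt8 was at 250 and 43.5 CPM in KPC 1 and KPC 2, against 0.204 and 74.4 CPM in wild type 1 and wild type 2. On the same scale Krt18 was at 324 and 84.1 CPM in KPC 1 and KPC 2, against 14.7 and 93.0 CPM in wild type 1 and wild type 2. The ratio of Krt8 to Krt18 was therefore 0.773 in KPC 1 and 0.517 in KPC 2, against 0.0139 in wild type 1 (exact 95% interval 0.00857 to 0.0213) and 0.800 in wild type 2. How reads shared by Krt8 and the pseudogene Krt8-ps were counted is not stated in the labels. The row that holds Krt8-ps had 160 counts in wild type 1, where Krt8 had 21 and Krt18 had 1109. That is 7.62 counts per Krt8 count, against 0.716 to 0.791 in the other 3 libraries. How many of the 160 are reads of Krt8 was not tested. Krt7, the other type II chain, stood at 0.376 CPM per exon kilobase in wild type 1.

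Summed per exon kilobase, the type II keratins Krt7 and Krt8 reached 0.651 and 0.636 of the type I keratins Krt18, Krt19, Krt20 and Krt23 in KPC 1 and KPC 2, against 0.0318 in wild type 1 and 0.754 in wild type 2. Krt18 was the most abundant of the 6 on this scale in every library, with 49.2% and 45.6% of their sum in KPC 1 and KPC 2, against 77.9% and 47.1% in wild type 1 and wild type 2. Krt8 came second in KPC 1, KPC 2 and wild type 2, and Krt19 in wild type 1, with 17.6% of the sum. Krt7 held 1.41% of the sum in KPC 1 and 15.3% in KPC 2, against 2.00% and 5.30% in wild type 1 and wild type 2, so the KPC libraries differed from each other more in Krt7 than from wild type 2. Its share rests on a principal transcript of 4094 bases, of which no more than 65.3% could have been covered in KPC 1. The ratio of Krt23 to Krt19 was 0.656 and 0.215 in KPC 1 and KPC 2, against 0.00732 and 0.0538 in wild type 1 and wild type 2, and the groups did not overlap.

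**Figure D3:**
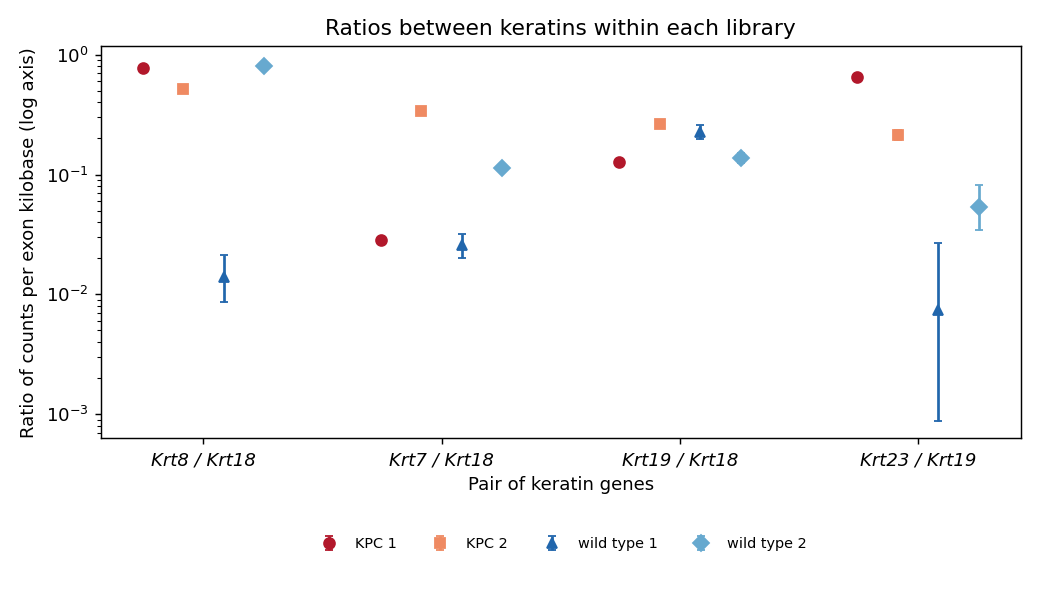
Ratios between keratin genes within each library, in counts per exon kilobase on a log axis, KPC left of wild type; bars are exact 95% intervals of counting error. Krt8 over Krt18 is between 0.517 and 0.800 in 3 libraries and 0.0139 in wild type 1, while Krt19 over Krt18 stays between 0.127 and 0.263 in all 4.

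The bases covered by reads separate broad from narrow signals. Covered bases were counted over the whole interval, introns included. Krt18 in wild type 1 had 1109 counts over 1668 bases, close to the 1663 and 1669 bases in KPC 2 and wild type 2. Its principal transcript has 1437 bases. Krt19 in wild type 1 had 275 counts over 1568 bases, and its principal transcript has 1576. Krt8 in wild type 1 had 21 counts over 200 bases, where 21 reads of 37 bases could cover up to 777, so its few reads came from short stretches. In contrast, 25 counts of Krt20 in wild type 1 covered 735 of at most 925 bases, and 24 counts of Krt23 in wild type 2 covered 511 of at most 888. In KPC 1, Krt8, Krt18 and Krt23 covered 165%, 166% and 152% as many bases as their principal transcript has, so part of those counts lay outside its exons. Such excess was not limited to these. Krt18 was at 116% in KPC 2, wild type 1 and wild type 2. Krt19 was at 113% and 112% in KPC 1 and KPC 2, and Krt20 at 104% in KPC 1. In KPC 2, Krt7, Krt8 and Krt23 were at 110%, 109% and 104%.

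Words of 37 bases shared with transcripts of other genes show which keratins could share reads. Krt19, Krt20 and Krt23 had 0 such words. Krt18 shared 82 of 1401 words, all with the processed pseudogenes Gm5200 and Gm17847. Krt8 shared 644 of 1922, most of them (578) with the processed pseudogene Krt8-ps on chromosome 7. Krt7 shared 66 of 4058 with 110 genes. Counts of Krt8 are therefore the least certain of the 6.

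Markers of cell types known to make these keratins did not all follow them. Over 15 epithelial surface and junction genes, 14 were tested, 13 had a positive log2 fold change (median 0.58), 5 were higher in both KPC libraries and 0 passed the edgeR test. Of all rows, 48.8% were positive and 20.6% were higher in both KPC libraries. Their summed level was 191 and 188 CPM in KPC 1 and KPC 2, against 71.3 and 166 CPM in wild type 1 and wild type 2, and St14 alone gave 52.4 to 57.0 CPM of it in each library. Cdh1, the E-cadherin gene, stood at 81.5 and 29.4 CPM in KPC 1 and KPC 2, against 0.818 and 18.9 CPM in wild type 1 and wild type 2. Epcam, a surface protein of most simple epithelia, stood at 5.41 and 18.1 CPM in KPC 1 and KPC 2, against 0.190 and 13.6 CPM in wild type 1 and wild type 2. Per exon kilobase Krt18 was 122 and 9.46 times Epcam in KPC 1 and KPC 2, against 157 and 14.0 times in wild type 1 and wild type 2.

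Mesothelial and duct lists were mixed. Of 9 mesothelial genes 8 were tested, 4 were positive (median -0.11) and 0 passed; their summed level was 112 and 33.2 CPM in KPC 1 and KPC 2, against 45.6 and 28.8 CPM in wild type 1 and wild type 2. Msln, the mesothelin gene, stood at 76.7 and 17.2 CPM in KPC 1 and KPC 2, against 0.837 and 8.72 CPM in wild type 1 and wild type 2. Its order of libraries was that of Krt19 and Krt23, and also of Cdh1 and Wt1, but not of Epcam, Nkain4 or Upk1b. Wt1 was higher in both KPC libraries, at 13.2 and 10.1 CPM in KPC 1 and KPC 2, against 1.01 and 7.25 CPM in wild type 1 and wild type 2. Nkain4 was lower in both KPC libraries, at 1.92 and 1.64 CPM in KPC 1 and KPC 2, against 16.7 and 2.15 CPM in wild type 1 and wild type 2. Upk1b, a uroplakin gene, stood at 17.3 and 2.67 CPM in KPC 1 and KPC 2, against 16.4 and 8.50 CPM in wild type 1 and wild type 2. Of 10 duct genes 9 were tested, 7 were positive (median 0.91) and 0 passed the edgeR test. Their sum was 981 and 1090 CPM in KPC 1 and KPC 2, against 86.4 and 351 CPM in wild type 1 and wild type 2, and Spp1 (osteopontin), which other cells make too, gave most of it except in wild type 1, where Cd24a was higher, at 41.9 CPM against 29.7 CPM of Spp1. Muc1, a mucin of duct surfaces, stood at 17.7 and 9.27 CPM in KPC 1 and KPC 2, against 0.247 and 2.24 CPM in wild type 1 and wild type 2. It too had the order of libraries of Krt19 and Krt23, while Spp1 and Cd24a did not. Muc1 was the 1 duct gene called by DESeq2 (adjusted p = 0.00822), which called 1.44% of all rows higher. Cftr, the chloride channel gene of ducts, was lower in both KPC libraries, at 0.646 and 0.398 CPM in KPC 1 and KPC 2, against 1.12 and 0.671 CPM in wild type 1 and wild type 2. Acinar genes were low, with sums of 10.3 and 9.78 CPM in KPC 1 and KPC 2, against 6.11 and 8.94 CPM in wild type 1 and wild type 2. Of 7 acinar genes tested 4 were positive (median log2 fold change 0.16). Cela1, an elastase gene, was the 1 acinar gene called by DESeq2 (adjusted p = 0.0352), beside the same share of all rows. It stood at 5.41 and 4.85 CPM in KPC 1 and KPC 2, against 1.05 and 2.19 CPM in wild type 1 and wild type 2.

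Markers of other cell types also differed between the libraries, though 0 genes of these lists passed the edgeR test. DESeq2 called 4 macrophage genes (Mrc1, Ptprc, Cd68 and Cd14) higher and called 1 endothelial gene (Eng) and 3 islet genes (Ins2, Gcg and Chgb) lower. Over all rows it called 1.44% higher and 1.28% lower. All 12 macrophage genes with a row were higher in both KPC libraries (median log2 fold change 3.15), as were 20.6% of all rows. The 12 summed to 1037 and 2187 CPM in KPC 1 and KPC 2. In wild type 1 and wild type 2 they summed to 69.7 and 261 CPM. The 8 endothelial genes summed to 35.8 and 85.8 CPM in KPC 1 and KPC 2. In wild type 1 and wild type 2 they summed to 886 and 145 CPM. Of the 8, 7 were lower in both KPC libraries (median log2 fold change -3.32), as were 20.5% of all rows. The 7 islet genes summed to 0.527 and 1.28 CPM in KPC 1 and KPC 2, against 1.75 and 941 CPM in wild type 1 and wild type 2, and 3 of them were at 0 in KPC 1. The 7 fibroblast genes, most of whose level came from the collagen genes Col1a1, Col1a2 and Col3a1, summed to 8313 and 10139 CPM in KPC 1 and KPC 2, against 7756 and 8122 CPM in wild type 1 and wild type 2. Of these, Lum, the lumican gene, was low, at 1.496 and 7.34 CPM in KPC 1 and KPC 2, against 0.171 and 3.31 CPM in wild type 1 and wild type 2. The part of these cell types in the keratin values was not tested.

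**Figure D4:**
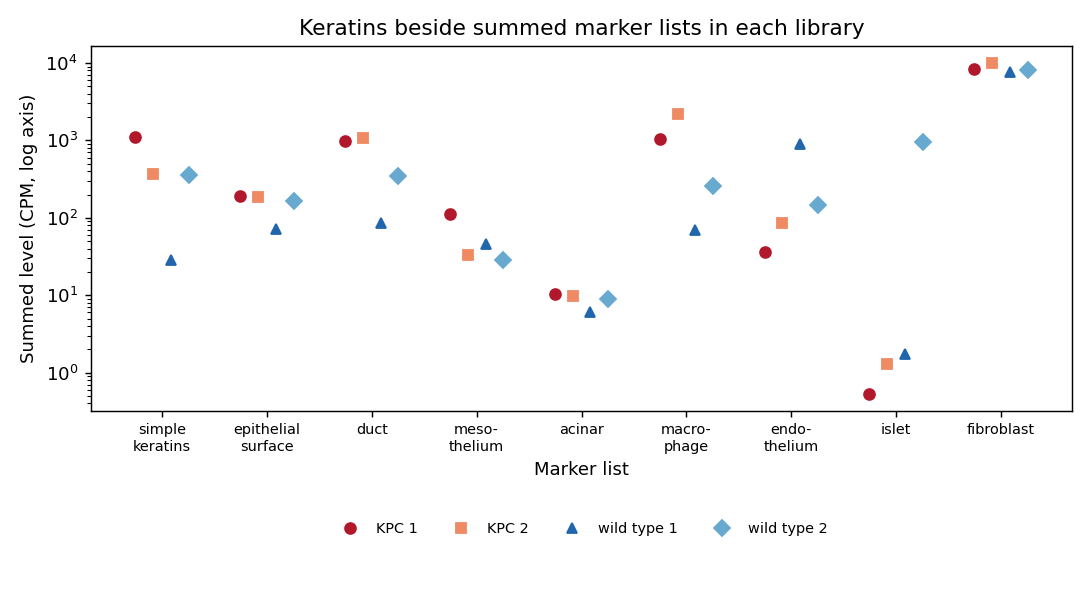
Summed level of each marker list in each library, in CPM on a log axis, with the 6 keratins at the left and KPC left of wild type. The keratins run from 28.8 CPM in wild type 1 to 1113 CPM in KPC 1, while the fibroblast genes stay between 7756 and 10139 CPM.

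Keratins of layered epithelia and hair were low in sum. Of 20 such type II keratins with a row 5 were tested, and of 23 type I keratins 4 were tested; 0 of these 9 passed the edgeR test. Their sums were at most 7.30 CPM for type II and at most 15.0 CPM for type I in any library, against 28.8 to 1113 CPM for the 6 simple keratins. Krt14, the basal cell keratin, stood at 2.96 and 3.89 CPM in KPC 1 and KPC 2, against 0.0951 and 1.48 CPM in wild type 1 and wild type 2. Krt17, a basal and stress-linked keratin, stood at 1.38 and 1.12 CPM in KPC 1 and KPC 2, against 0.0761 and 9.66 CPM in wild type 1 and wild type 2. Krt80 stood at 2.36 and 1.81 CPM in KPC 1 and KPC 2, against 0.723 and 1.21 CPM in wild type 1 and wild type 2, and had an unadjusted edgeR p of 0.0345. In all, 2 of the 5 tested type II keratins were higher at an unadjusted edgeR p under 0.05, against 4.73% of all rows. The other had a mean below 1 CPM. Krt75, a hair follicle keratin, was lower in both KPC libraries, at 1.96 and 1.92 CPM in KPC 1 and KPC 2, against 3.61 and 2.06 CPM in wild type 1 and wild type 2. Krt10, the keratin of upper epidermal layers, was much alike in all 4, at 1.65 and 1.74 CPM in KPC 1 and KPC 2, against 1.64 and 1.83 CPM in wild type 1 and wild type 2.

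The genes that anchor keratin filaments and the factors that set epithelial identity had smaller median differences than the keratins. Of 15 anchor genes tested 10 were positive (median log2 fold change 0.25) and 0 passed the edgeR test. In both KPC libraries 3 were higher and 1 lower, against 20.6% and 20.5% of all rows. Plec, the plectin gene that links filaments of several kinds, stood at 148 and 97.2 CPM in KPC 1 and KPC 2, against 214 and 117 CPM in wild type 1 and wild type 2. Itga6, an integrin chain of hemidesmosomes, stood at 58.3 and 12.9 CPM in KPC 1 and KPC 2, against 17.7 and 11.4 CPM in wild type 1 and wild type 2. Of 12 epithelial transcription and splicing factors tested 10 were positive (median 0.27) and 0 passed. Of these 12, 3 were higher and 1 lower in both KPC libraries, beside the same shares of all rows. Klf4 had the highest mean level of the 12, at 19.7 and 7.59 CPM in KPC 1 and KPC 2. In wild type 1 and wild type 2 Klf4 stood at 21.7 and 4.61 CPM, so it was highest in wild type 1. Esrp2 stood at 7.90 and 6.94 CPM in KPC 1 and KPC 2, against 3.96 and 9.97 CPM in wild type 1 and wild type 2. Grhl2, a regulator of epithelial junction genes, was at 4.15 and 4.85 CPM in KPC 1 and KPC 2, against 3.84 and 4.38 CPM in wild type 1 and wild type 2, and did not share the low value of the keratins in wild type 1. Elf3, an epithelial ETS factor, was at 6.02 and 4.69 CPM in KPC 1 and KPC 2, against 0 counts in wild type 1 (3 counts there would be 0.0571 CPM, and the exact 95% interval reaches 0.0702 CPM) and 1.88 CPM in wild type 2.

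Filament genes of mesenchymal cells differed among themselves. Vim, the vimentin gene, stood at 1731 and 1698 CPM in KPC 1 and KPC 2, against 3695 and 2157 CPM in wild type 1 and wild type 2 (edgeR adjusted p = 0.579). Wild type 1, with the least keratin, had the most vimentin. KPC 1 and KPC 2 had similar Vim levels, though their keratins summed to 1113 and 368 CPM. A link between the levels was not tested. Des, the desmin gene of muscle and stellate cells, stood at 1507 and 620 CPM in KPC 1 and KPC 2, against 5.33 and 281 CPM in wild type 1 and wild type 2 (log2 fold change 2.90 ± 1.69, edgeR adjusted p = 0.670). Its order of libraries was that of Krt19 and Krt23, which Cdh1, Msln, Wt1 and Muc1 also had. Lmna, the lamin A and C gene, stood at 459 and 368 CPM in KPC 1 and KPC 2, against 489 and 375 CPM in wild type 1 and wild type 2.

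The profile of each keratin over the 4 libraries was set against 13233 other rows with a mean of at least 5 CPM, by the root-mean-square distance between log2 CPM profiles centred on their means. Wnt7a, a Wnt ligand gene, was nearest to Krt19, at a distance of 0.03, followed by Gm16630 and Smim3, both at 0.17. Nearest to Krt18 were Gm15756 (0.22), the receptor tyrosine kinase gene Mst1r (0.23) and the clusterin gene Clu (0.26). For Krt7 they were the complement gene C3 (0.32), the interleukin 1 receptor antagonist gene Il1rn (0.33) and Lrrc15 (0.38), and for Krt20 they were Trnp1 (0.47), Clu (0.54) and Fxyd6 (0.56). Krt8 and Krt23, whose wild type 1 values are on few counts, had more distant neighbours, led by the protease gene Mmp10 (0.70), Mmp9 (1.03) and Des (1.04) for Krt8 and by Wfdc17 (0.72), E230016K23Rik (0.87) and Areg (0.90) for Krt23. Among the keratins themselves Krt18 and Krt19 were closest, at 0.45, with 7 other rows nearer to Krt18 and 50 nearer to Krt19, while Krt8 was 2.39 from Krt18. With 4 libraries, 1 of which was low for all 6 keratins, such likeness describes these libraries only.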

How the data were processed

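Libraries of poly-A RNA gave single reads (per the labels' protocols). Tools named in the submitters' processing notes are TopHat2 2.0.3, SAMtools 0.1.18, FastQC 0.10.1 and bedtools, with the build mm10/GRCm38; the step each served is not given. The authors deposited, for each library, a raw read count per gene interval, the covered bases, the interval length and the covered fraction; the unit was read from the values. Rows with 1 count most often covered 37 bases. Strand and the treatment of reads with several matches are not given in the sources used here.

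Counts were tested with edgeR 4.0.16 in R 4.3.3: filterByExpr (minimum count 10), TMM, a two-sided quasi-likelihood test (KPC over wild type) and Benjamini-Hochberg adjustment over 23046 rows at 0.05. Each SE was taken from the test itself, as the unshrunk log2 fold change (sign dropped) over root F. Scripts were tested on simulated data. Exon lengths and pseudogenes came from GENCODE M21 (GRCm38). Per-kilobase levels use the principal coding transcript. Alternatives were other scalings, count filters, DESeq2 1.42.0, limma voom (limma 3.58.1), a replicate block and leaving out each library. Named genes were the 6 keratins, other keratins with a mean of at least 1 CPM, the 3 nearest profiles of each keratin, up to 4 genes of highest mean per list, and Epcam and Cdh1; Cftr, Lum, Ptprc, Cd68, Mrc1, Cd14, Gcg, Nlrp4e and the pseudogenes were named after their values were seen. The keratins and the lists were chosen with earlier results of these data known. Some items are not reported here. Figures were drawn with matplotlib 3.10.9.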

Additional observations from a re-analysis of the deposited data

How the results depend on the processing

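With RLE or upper quartile factors, library totals, no count filter, a filter of 1 CPM in 2 libraries, limma voom or the replicate block, edgeR or voom called 0 rows and 0 of the 6 keratins, as with all 4 libraries. DESeq2 called 627 rows and 0 of the keratins. Leaving out each library in turn gave 0 to 835 rows and 0 to 2 keratins called, the highest of both without wild type replicate 2 (where Krt20 was at 4.15). Krt20 changed sign, to -0.74 without KPC replicate 1 and -0.46 without wild type replicate 1; the other 5 stayed positive in every alternative. With the replicate number as a block the log2 fold change of Krt8 was 4.40, that of Krt7 2.97 and that of Krt20 1.39, with 0 rows called; same-numbered libraries deviated together only weakly (correlation 0.14 over rows), and the labels do not say that the number pairs them. Krt23 and Krt8 rest on few counts in wild type 1 (2 and 21), though the library with the smallest total was wild type 2 (22302141 counts).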

Other observations

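The row of Nlrp4e, an oocyte gene, ran beside Krt8 and was picked out after its values were seen. Its interval on chromosome 7 (23301275 to 23362270, mm10) holds Krt8-ps (23357125 to 23358069), which shares 578 of the 1922 words of 37 bases in Krt8. The Nlrp4e row held 20632 and 4158 counts in KPC 1 and KPC 2, against 160 and 2575 counts in wild type 1 and wild type 2. Per count of Krt8 that is 0.716 and 0.720 in KPC 1 and KPC 2, against 7.62 in wild type 1 and 0.791 in wild type 2. These counts covered between 1765 and 2780 of the bases of the interval. How many of them are reads of Krt8 was not tested.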
